A study of Canis lupus familiaris with 30 samples.

Results

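The 6 genes described here encode the T-cell receptor chains CD3E and CD3D, the T-cell surface receptor CD5, and the kinases LCK, ZAP70 and PRKCQ, which relay the receptor's signal. They were the 6 of 10 named T-cell receptor and coreceptor genes that the study's supplementary gene tables paired with an Ensembl gene ID of the dog, among 32704 gene IDs measured. The other 4, CD3G, CD247, CD4 and CD8A, were not analysed here. The gene IDs were ENSCAFG00000012802 for CD3E, ENSCAFG00000031719 for CD3D, ENSCAFG00000016332 for CD5, ENSCAFG00000010625 for LCK, ENSCAFG00000002371 for ZAP70 and ENSCAFG00000005169 for PRKCQ. In RefSeq's gene order of the dog assembly UU_Cfam_GSD_1.0, which is not the build of the files, CD3D lies between CD3G and CD3E, and CD5 lies beside CD6.

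RNA was sequenced from lymph node fine needle aspirates of 15 dogs with lymphoma, 1 library before treatment (initial) and 1 library 6 weeks into CHOP, a combination of cyclophosphamide, doxorubicin, vincristine and prednisone. The labels gave a T-cell immunophenotype to 3 dogs (028, 036 and 038), an unknown immunophenotype to 5 dogs (024, 025, 026, 031/032 and 035) and a B-cell immunophenotype to 7 dogs (003, 027, 029, 030, 033, 034 and 037). Dogs had no earlier treatment apart from, at most, an injection of prednisone. No healthy lymph node stood beside them, and an aspirate holds malignant and other cells together. Immunophenotypes came from flow cytometry, which was missing in the 5 unknown dogs for technical reasons. The 2 libraries of dog 031/032 carry different numbers in their names and were paired by elimination.

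The T-cell receptor recognizes peptides on MHC molecules but has no signalling tail of its own, so the CD3 chains carry the signal into the cell. LCK, a kinase that rides on the coreceptors CD4 and CD8, phosphorylates the CD3 tails, ZAP70 docks on the phosphorylated tails and passes the signal to adaptor proteins, and PRKCQ (protein kinase C theta) carries it on towards NF-kappaB. CD5 is an inhibitory receptor found on T cells and on some B cells. These transcripts mark T cells in lymphoid tissue, whether malignant or reactive, and a bulk sample cannot tell fewer cells of a type from less RNA per cell.

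Values are FPKM, the reads of a gene scaled by its length and by the depth of the library, as the authors deposited them. Total counts per library were 4318394 to 43413353, with a median of 16327922.5. In the 18 libraries of 9 dogs the order of genes by count matched their order by FPKM (Spearman correlation across gene IDs of 0.88 to 0.983), and in the 12 libraries of dogs 024, 027, 028, 029, 030 and 035 it did not (0.087 to 0.117), so counts were used only in the 9 dogs. In the levels below, 2 dogs stood apart from others with their immunophenotype label. Dog 038, labelled T-cell, had initial FPKM of 62.8 for the B-cell transcription factor PAX5 and 71.8 for the B-cell receptor regulator CD22. Dog 029, labelled B-cell, had 17.7 for PAX5 and 46.1 for CD22 beside high levels of all 6 genes.

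CD3E, the epsilon chain that every T-cell receptor complex carries, had 188, 328 and 14.6 FPKM in T-cell dogs 028, 036 and 038 before treatment. It had 7.29, 6.27, 2.35, 69.4 and 1.64 FPKM in the unknown dogs 024, 025, 026, 031/032 and 035, and 1.56 to 178 FPKM with a median of 9.28 in the 7 B-cell dogs. The T-cell and B-cell groups overlapped, because dog 038 lay below B-cell dogs 029, 034 and 037, and B-cell dog 029 lay close to T-cell dog 028. CD3E ranged 211-fold over the 15 initial libraries, and no library was at 0.

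**Figure D1:**
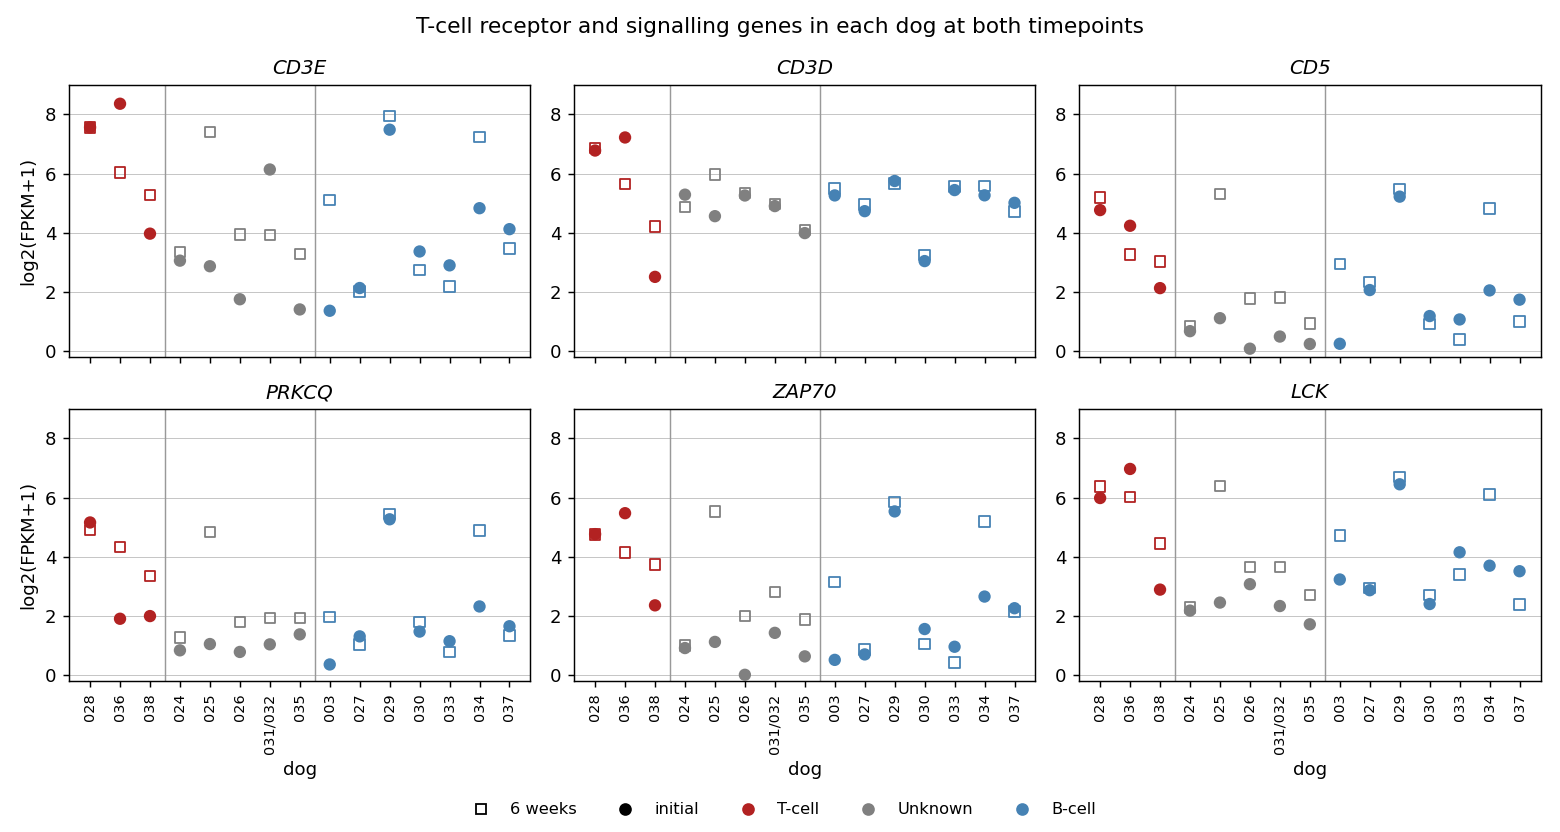
Levels of the 6 genes as log2(FPKM+1) on the vertical axis, with each dog on the horizontal axis in the order T-cell, unknown and B-cell; open squares are 6-week and filled circles initial libraries. Before treatment dogs 028, 036 and 029 stand high in 5 of the 6 genes, and dog 038 lies within the range of the B-cell dogs in 5 genes and below them in CD3D, the gene with the smallest range between dogs.

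CD3D, the delta chain that pairs with the epsilon chain, was flatter across dogs. It had 108.8, 148 and 4.67 FPKM in the T-cell dogs, 38.0, 22.5, 37.2, 28.8 and 14.8 FPKM in the unknown dogs, and 7.21 to 52.7 FPKM with a median of 37.3 in the B-cell dogs. The lowest initial value of all was thus in T-cell dog 038, and the next in B-cell dog 030, whose 6-week value was also low (8.52 FPKM). CD3D ranged 31.8-fold over the initial libraries. FPKM divides by the length used for each gene, so the order of both chains rests on these lengths, which were not checked. In the initial library of dog 036, 6910 reads of CD3D gave 148 FPKM and 6618 reads of CD3E gave 328 FPKM. Whether all reads counted for CD3D came from its transcript was not tested. By FPKM, CD3D was below CD3E in 12 of 30 libraries and above it in 18. The ratio of CD3D to CD3E was 0.203 in the 6-week library of dog 029 and 23.9 in the initial library of dog 003, the 2 ends of its range. All 9 libraries with a CD3E above 60 FPKM had a lower FPKM for CD3D than for CD3E. In the initial library of dog 003 the ratio rested on 3292 reads of CD3D and 60 of CD3E. In dog 031/032 CD3E alone was high before treatment, at 69.4 FPKM from 1664 reads, while CD3D was 28.8, LCK 4.02, ZAP70 1.68, PRKCQ 1.04 and CD5 0.397 FPKM.

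**Figure D2:**
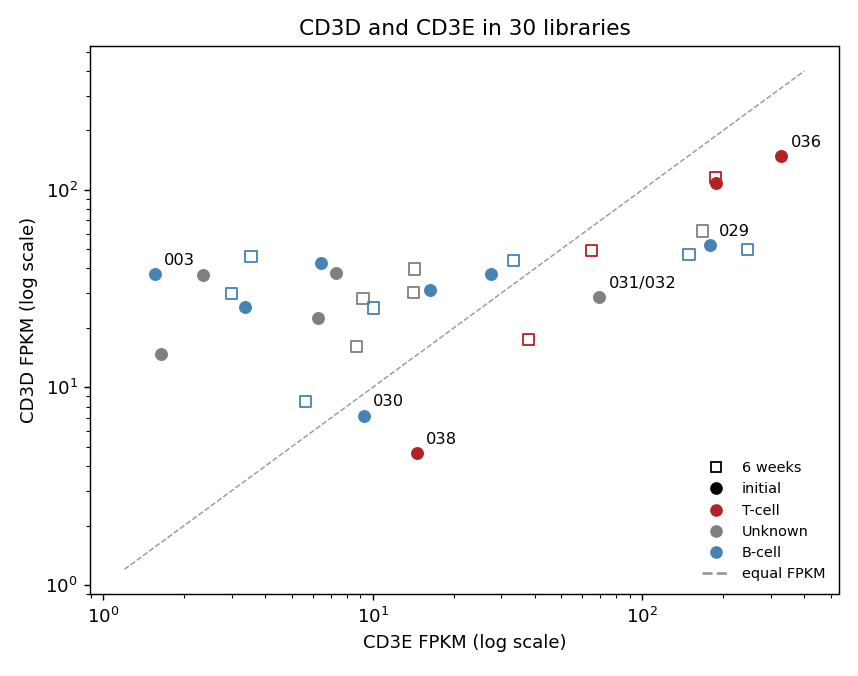
FPKM of CD3D (vertical, log scale) against CD3E (horizontal, log scale) in 30 libraries, open squares 6 weeks and filled circles initial, with the line of equal FPKM dashed. CD3D stays between 14.8 and 61.9 FPKM in most libraries whether CD3E is 1.56 or 245 FPKM, and is lowest in dogs 038 and 030.

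CD5 had 26.2, 17.8 and 3.35 FPKM in T-cell dogs 028, 036 and 038 before treatment. It had 0.585, 1.15, 0.0506, 0.397 and 0.173 FPKM in the unknown dogs, and 0.179 to 36.2 FPKM with a median of 2.32 in the B-cell dogs. The highest value was in B-cell dog 029, and without it the B-cell dogs stayed at or below 3.16 FPKM, under all 3 T-cell dogs.

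LCK, the first kinase of the pathway, had 62.3, 124 and 6.38 FPKM in the T-cell dogs. It had 3.51, 4.45, 7.39, 4.02 and 2.27 FPKM in the unknown dogs, and 4.26 to 86.4 FPKM with a median of 10.4 in the B-cell dogs. T-cell dog 038 lay below the B-cell median. ZAP70 had 26.1, 43.4 and 4.10 FPKM in the T-cell dogs, 0.873, 1.16, 0, 1.68 and 0.541 FPKM in the unknown dogs, and 0.420 to 45.2 FPKM with a median of 1.93 in the B-cell dogs. It was listed at 0 in dog 026, where no read was counted. PRKCQ split the 2 dogs that stood out as T-cell: it had 34.7 FPKM in dog 028 but 2.73 in dog 036 and 2.97 in dog 038. It had 0.776, 1.06, 0.710, 1.04 and 1.58 FPKM in the unknown dogs and 0.274 to 37.4 FPKM with a median of 1.76 in the B-cell dogs, with dog 029 again highest. Dog 036 therefore had the highest CD3E, CD3D and LCK of all initial libraries together with a PRKCQ below that of B-cell dog 034 (3.97 FPKM).

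The labels were compared first before treatment, T-cell minus B-cell dogs. All 6 genes were higher on average in T-cell dogs, and none passed limma's test on log2(FPKM+1) with Benjamini-Hochberg adjustment over all genes. CD3E averaged 177 ± 157 FPKM in T-cell dogs and 34.7 ± 63.9 FPKM in B-cell dogs (SD, n = 3 and 7), a difference of 2.89 on the log2 scale (SE 1.23, 95% interval 0.20 to 5.59, limma adjusted p = 0.235). ZAP70 differed by 2.18 (SE 1.01, limma adjusted p = 0.270) and CD5 by 1.77 (SE 0.91, limma adjusted p = 0.309). LCK differed by 1.52, PRKCQ by 1.09 and CD3D by 0.58, with limma adjusted p of 0.374, 0.555 and 0.748. The 95% interval of CD3D, the smallest of these differences, ran from -1.37 to 2.52. Of all 13877 genes tested, 5 passed, or 0.036%, and 2635 had an unadjusted p under 0.05, with 1 of the 6 genes, CD3E, among the latter. The median difference was 1.65 over the 6 genes and -0.013 over all genes tested.

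**Figure D3:**
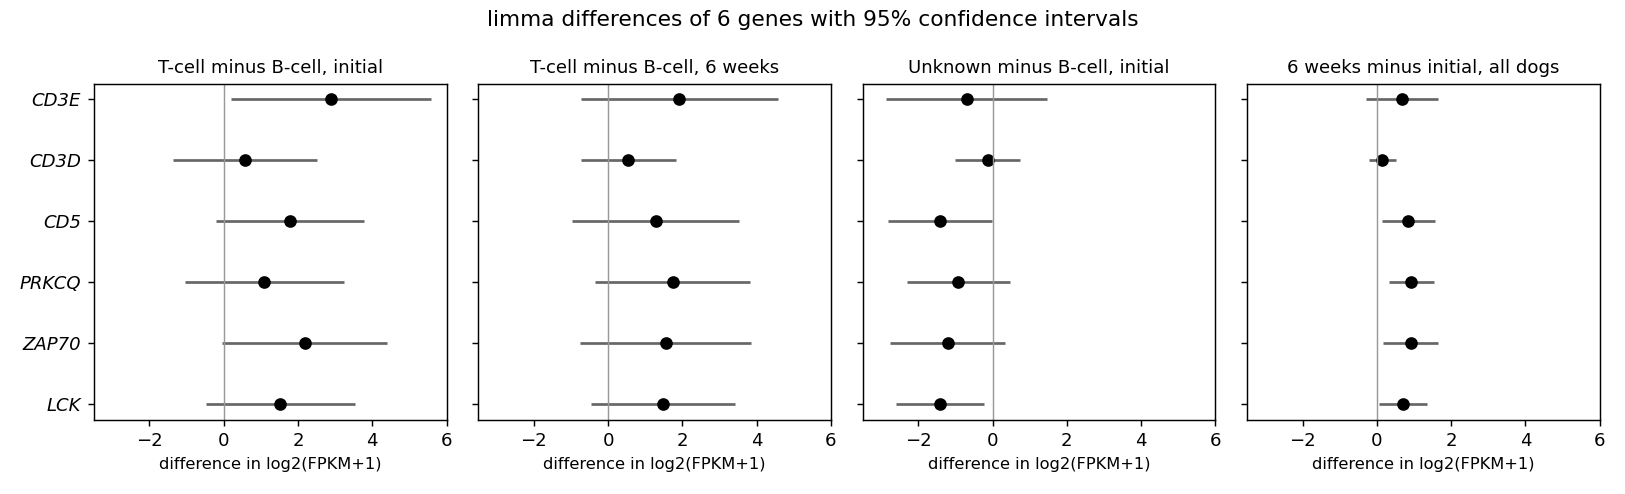
Differences in log2(FPKM+1) of the 6 genes (points) with 95% confidence intervals (lines) from limma, for T-cell minus B-cell dogs at both timepoints, unknown minus B-cell dogs before treatment, and 6 weeks minus initial in all dogs. The interval excludes 0 for CD3E in the first panel, CD5 and LCK in the third and CD5, PRKCQ, ZAP70 and LCK in the fourth, and none passed after adjustment.

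The call depended on dog 038. Without it, CD3E differed by 4.23 (limma adjusted p = 0.0495) and CD3D by 2.07 (limma adjusted p = 0.0381), while 13.2% of all genes passed, so that 2 of 6 genes stood beside 1822 of 13822. LCK then differed by 2.72 and ZAP70 by 3.1, with limma adjusted p of 0.0567 and 0.0852. Dog 038 had the lowest CD3E, CD3D, LCK and ZAP70 of the T-cell dogs, so its omission had to raise these differences. The 2 calls without it therefore support nothing. Dogs 028 and 036 carried the averages the other way: without dog 028 PRKCQ differed by 0.018, and without dog 036 LCK differed by 0.68 and CD3D by -0.29, while without dog 036 PRKCQ differed by 1.65. B-cell markers differed between the same dogs. The summed FPKM of 4 B-cell genes (PAX5, CD22, BTK and POU2AF1) was 18.2, 5.79 and 305 in T-cell dogs 028, 036 and 038, against 115 to 413 in the B-cell dogs, where dog 029 was lowest. None of the 4 was at 0 in dog 036, the lowest being PAX5 at 0.291 FPKM, and the part of other cells in the difference was not tested.

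**Figure D4:**
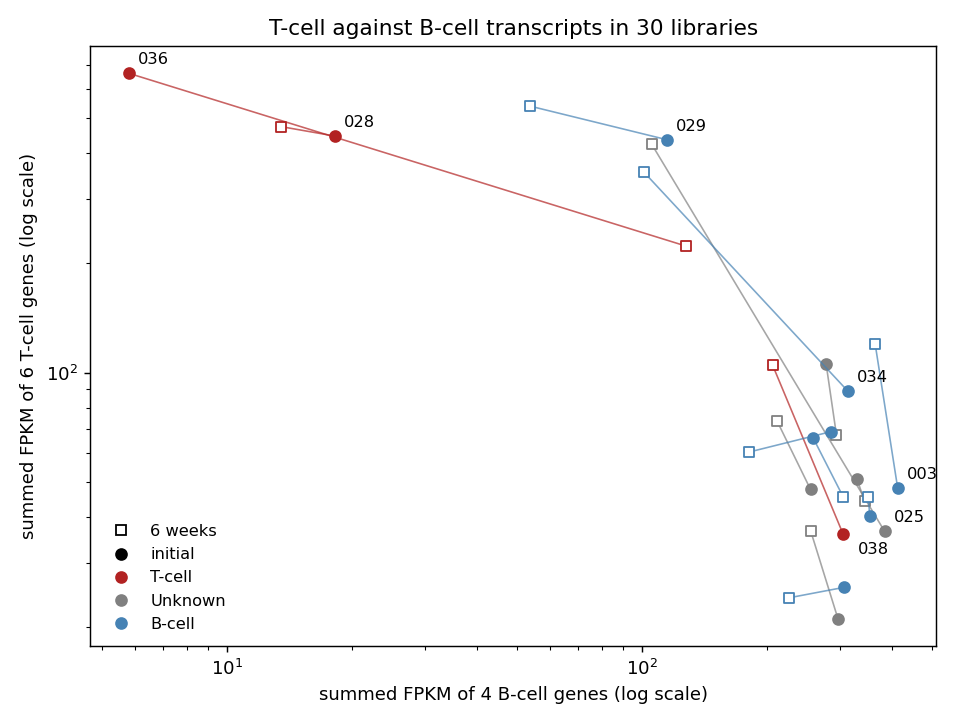
Summed FPKM of the 6 T-cell genes (vertical, log scale) against summed FPKM of 4 B-cell genes (horizontal, log scale), with a line joining the 6-week (open square) and initial (filled circle) library of each dog. Dogs 028 and 036 start far to the left, dog 038 starts among the B-cell dogs, and the lines of dogs 025 and 034 run up and to the left towards dog 029.

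Of the other genes of the T-cell receptor pathway and of T-cell identity, 18 of 38 listed had a gene ID, and 17 of the 18 were higher in T-cell dogs before treatment, with a median difference of 1.89. None passed the test and 11 had an unadjusted p under 0.05, as had 2635 of all 13877 genes. The smallest p-values were those of GATA3, a transcription factor of T cells, with 36.9, 92.2 and 0.995 FPKM before treatment in dogs 028, 036 and 038, and SH2D1A, an adaptor of T and NK cells. GATA3 differed by 3.31 (SE 1.03, limma adjusted p = 0.159) and SH2D1A by 3.43 (SE 1.21, limma adjusted p = 0.180). The gene tables that supplied the symbols were sorted by p-value and chosen on these libraries, so the lists are partial and not independent of them.

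After 6 weeks, the T-cell dogs were again higher on average in all 6 genes and the groups overlapped in each. CD3E had 188, 64.7 and 37.9 FPKM in T-cell dogs 028, 036 and 038, against 3.00 to 245 FPKM with a median of 10.1 in B-cell dogs. PRKCQ had 28.8, 19.1 and 9.15 FPKM in the T-cell dogs, against 0.711 to 42.5 FPKM with a median of 2.45 in the B-cell dogs. B-cell dogs 029 and 034 were the only ones above T-cell dog 036 in CD3E, CD5, PRKCQ, ZAP70 and LCK. The differences were 1.91 for CD3E, 1.73 for PRKCQ, 1.55 for ZAP70, 1.48 for LCK, 1.28 for CD5 and 0.54 for CD3D, with limma adjusted p of 0.752 to 0.850. Without dog 028 CD5 differed by 0.597 and CD3D by -0.1, and without dog 038 CD3D differed by 1.22. No gene of 15696 passed in limma (0%), and 1044 had an unadjusted p under 0.05, none of the 6 among them. Of the pathway list, 17 of 18 were higher in T-cell dogs, and SH2D1A (3.07, limma adjusted p = 0.739) and TRAT1, a T-cell receptor-associated adaptor (2.5, limma adjusted p = 0.739), had the smallest p-values. The 5 macrophage genes were also all higher in T-cell dogs at this time, with summed FPKM of 21.2, 98.8 and 329 in dogs 028, 036 and 038, against 8.19 to 164 in the B-cell dogs, and their part in the result was not tested.

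The unknown dogs were compared with the B-cell dogs before treatment. All 6 genes were lower on average in unknown dogs. LCK averaged 4.33 ± 1.90 FPKM in unknown and 20.6 ± 29.3 FPKM in B-cell dogs (SD, n = 5 and 7), a difference of -1.41 on the log2 scale (SE 0.55, limma adjusted p = 0.895). CD5 differed by -1.42, ZAP70 by -1.21, PRKCQ by -0.92, CD3E by -0.70 and CD3D by -0.13, with limma adjusted p of 0.895 to 0.971. Without B-cell dog 029 the differences were -0.074 for CD3E, -0.36 for PRKCQ, -0.62 for ZAP70, -0.87 for CD5 and -0.96 for LCK, and without unknown dog 031/032 CD3E differed by -1.47. The groups overlapped in every gene. One of 13293 genes passed, or 0.00752%, and 538 had an unadjusted p under 0.05, LCK and CD5 among them. CD5 and ZAP70 entered this fit only through the B-cell dogs, as they averaged 0.471 and 0.851 FPKM in the unknown dogs. Of the pathway list 1 of 18 was higher in unknown dogs, and PAG1, a membrane adaptor that restrains Src-family kinases (-1.41, limma adjusted p = 0.895), and IL7R, the interleukin-7 receptor (-1.60, limma adjusted p = 0.895), had the smallest p-values. The summed FPKM of the 4 B-cell genes was 255 to 384 in unknown dogs, within the 115 to 413 of the B-cell dogs.

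The 6 weeks of CHOP were followed by very different levels of these genes from dog to dog. In 6 dogs all 6 genes were higher at 6 weeks than before (3 unknown, 2 B-cell and 1 T-cell), in 1 dog, 037, all 6 were lower, and in 8 dogs both directions occurred. In unknown dog 025 CD3E was 168 FPKM at 6 weeks, against 6.27 before treatment. CD5 was 38.6 against 1.15, ZAP70 45.2 against 1.16, LCK 83.4 against 4.45 and PRKCQ 27.4 against 1.06 FPKM in the same dog, while CD3D was 61.9 against 22.5 FPKM. In B-cell dog 034 CD3E was 149 FPKM at 6 weeks, against 27.4 before treatment, and ZAP70 35.4 against 5.27 FPKM. In B-cell dog 003 CD3E was 33.4 FPKM at 6 weeks, against 1.56 before treatment, while CD3D was 44.0 against 37.3 FPKM. The median log2 difference over the 6 genes was 4.08 in dog 025, 2.47 in dog 034 and 2.12 in dog 003, and between -1.15 and 1.37 in the other 12 dogs.

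**Figure D5:**
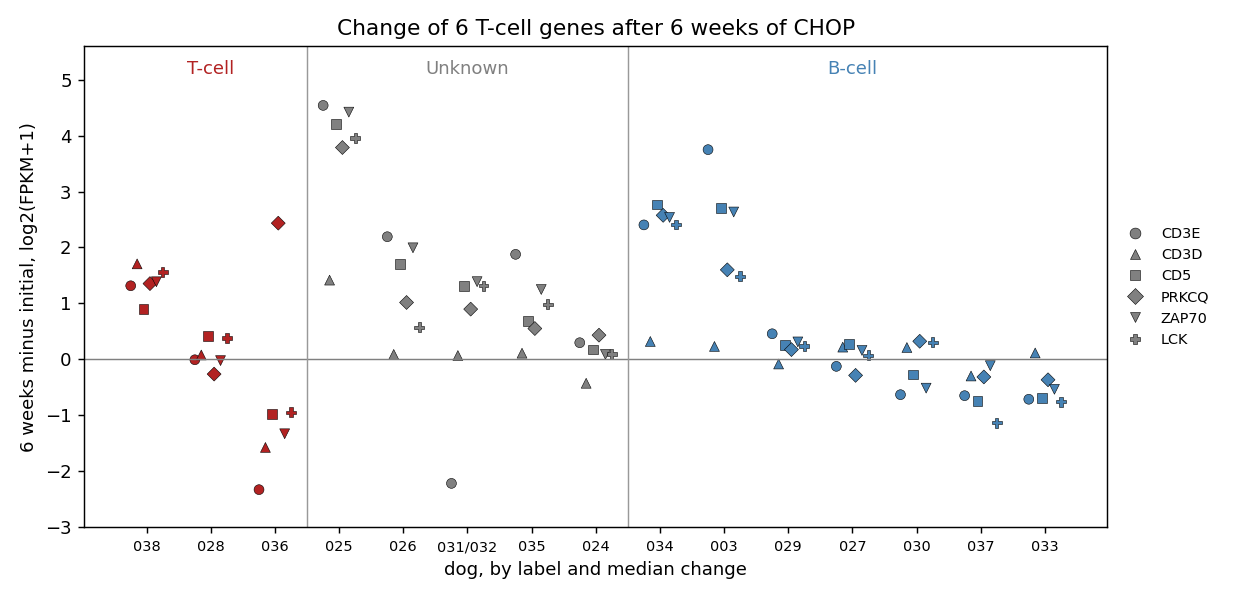
Difference 6 weeks minus initial in log2(FPKM+1) of the 6 genes (markers) in each dog, dogs grouped by label and ordered by their median. Dogs 025, 034 and 003 have the 3 highest medians, 4.08, 2.47 and 2.12, with CD3D close to 0 in dogs 034 and 003, and in dog 036 PRKCQ lies at 2.43 with the other 5 genes below 0.

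In T-cell dog 036 CD3E was 64.7 FPKM at 6 weeks, against 328 before treatment, CD3D 49.2 against 148 and LCK 64.1 against 124 FPKM. PRKCQ was 19.1 FPKM at 6 weeks, against 2.73 before, the one gene of the 6 that was higher. In T-cell dog 028 the log2 differences lay between -0.26 for PRKCQ and 0.42 for CD5, with CD3E at 188 FPKM at both times. T-cell dog 038 had CD3E of 37.9 FPKM at 6 weeks, against 14.6 before treatment. In dog 031/032 CD3E was 14.2 FPKM at 6 weeks, against 69.4 before, while the other 5 genes were higher.

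Markers of other cells differed between the times in the same dogs. The summed B-cell genes were 105 FPKM at 6 weeks, against 384 before treatment, in dog 025 and 101 against 313 in dog 034, while the summed macrophage genes (C1QA, C1QB, CSF1R, MRC1 and VSIG4) were 185 against 15.1 and 164 against 26.9 FPKM. In dog 036 both lists were higher at 6 weeks, the B-cell genes at 128 against 5.79 and the macrophage genes at 98.8 against 8.50 FPKM. In dog 003 the B-cell genes were 364 against 413 and the macrophage genes 8.19 against 13.9 FPKM, although CD3E, CD5 and ZAP70 were each far higher at 6 weeks. The part of cell composition in these differences was not tested.

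Over all 15 dogs, with the dog as a block, the 6 genes were higher on average at 6 weeks and none passed the adjusted test. PRKCQ averaged 11.6 ± 13.8 FPKM at 6 weeks and 6.25 ± 12.2 FPKM before treatment (SD, n = 15 dogs), was higher in 11 of 15 dogs and differed by 0.93 on the log2 scale (SE 0.29, 95% interval 0.32 to 1.54, limma adjusted p = 0.298). ZAP70 differed by 0.91 (10 of 15 dogs, limma adjusted p = 0.327), CD5 by 0.85 (11 of 15, limma adjusted p = 0.330) and LCK by 0.70 (12 of 15, limma adjusted p = 0.358). CD3E differed by 0.68 and was higher in 8 of 15 dogs, with an interval of -0.29 to 1.65 (limma adjusted p = 0.545), and differed by 0.40 without dog 025. CD3D differed by 0.15 and was higher in 11 of 15 dogs, with an interval of -0.22 to 0.52 (limma adjusted p = 0.761), and differed by 0.036 without dog 038 and 0.27 without dog 036. No gene of 14257 passed (0%). An unadjusted p under 0.05 was reached by 4 of the 6 genes, PRKCQ, ZAP70, CD5 and LCK, and by 1823 genes in all, or 12.8%.

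The count data of 9 dogs gave another call. DESeq2 with the dog as a factor called PRKCQ (1.95 on the log2 scale, adjusted p = 0.00330), ZAP70 (2.05, adjusted p = 0.0407) and CD5 (2.04, adjusted p = 0.0412) higher at 6 weeks, 3 of the 6 genes beside 630 of 11510 genes or 5.47%, of which 392 were higher and 238 lower. CD3E (1.01), LCK (0.99) and CD3D (0.25) did not pass in DESeq2. On the same counts edgeR's quasi-likelihood test called none of 11690 genes, of which 3700 had unadjusted p-values below 0.05, and gave PRKCQ a difference of 1.72 and an adjusted p of 0.0971. The median over all genes was -0.29 in edgeR and -0.07 in DESeq2, and the differences of the 6 genes stand relative to it. In the FPKM of the same 9 dogs limma called none of the 6. PRKCQ differed there by 1.44, ZAP70 by 1.38 and CD5 by 1.24. In the FPKM of the 6 dogs without matching counts PRKCQ differed by 0.16, ZAP70 by 0.21 and CD5 by 0.26. The choice of dogs therefore differs between the count fits and the main fit, beside the kind of value.

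The change was also fitted within each label. In the unknown dogs ZAP70 differed by 1.83 (SE 0.54), CD5 by 1.62 (SE 0.53), LCK by 1.39 (SE 0.50) and PRKCQ by 1.34 (SE 0.48), each higher in 5 of 5 dogs and each with a limma adjusted p of 0.871. CD3E differed by 1.34 and was higher in 4 of 5 dogs, and CD3D by 0.25. These values leaned on dog 025, without which ZAP70 differed by 1.18, LCK by 0.745, PRKCQ by 0.726, CD3E by 0.539 and CD3D by -0.038. No gene of 13555 passed (0%), while 4 of the 6 genes and 627 genes in all, or 4.63%, had an unadjusted p under 0.05. Of these 4, CD5 and ZAP70 entered this fit only through their 6-week values, as they averaged 0.471 and 0.851 FPKM before treatment. In the B-cell dogs the differences were 0.10 for CD3D, 0.38 for LCK, 0.53 for PRKCQ, 0.61 for CD5 and 0.64 for CD3E and for ZAP70, with limma adjusted p of 0.771 to 0.817. Without dog 034 they were 0.037 for LCK, 0.19 for PRKCQ and 0.25 for CD5, and without dog 003 they were 0.13 for CD3E and 0.31 for ZAP70. No gene of 14411 passed in the B-cell dogs (0%), and 759 had an unadjusted p under 0.05, none of the 6 among them. In the T-cell dogs PRKCQ differed by 1.18 (SE 0.55, limma adjusted p = 0.733), CD3E by -0.34, and the other 4 by 0.013 to 0.34, with none of 14558 genes passing in limma (0%) while 700 had unadjusted p-values below 0.05. Without dog 036 PRKCQ differed by 0.55 and CD3E by 0.66 in T-cell dogs, and without dog 038 CD3E differed by -1.17. The change in T-cell dogs minus that in B-cell dogs was 0.64 for PRKCQ, -0.98 for CD3E (SE 1.02, limma adjusted p = 0.654), -0.63 for ZAP70, -0.50 for CD5, -0.041 for LCK and -0.032 for CD3D. No gene of 14587 passed that test (0%), and 1842 had an unadjusted p under 0.05, none of the 6 among them.

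Of the pathway list, 16 of 18 were higher on average at 6 weeks over all dogs and none passed, with a median of 0.52, against -0.0058 over all genes and 0.78 over the 6. TXK, a kinase of the Tec family (0.86, limma adjusted p = 0.305), and ICOS, an inducible costimulatory receptor (0.82, limma adjusted p = 0.314), had the smallest p-values. In the B-cell dogs these were GATA3 (0.69) and CD28, the costimulatory receptor (0.77), both with a limma adjusted p of 0.771, and in the unknown dogs the smallest was that of SH2D1A (1.74, limma adjusted p = 0.871). In the T-cell dogs 4 of the 18 were higher at 6 weeks, and the smallest p-values were those of RASGRP1, an activator of Ras in T cells (-1.47), and SKAP1, an adaptor (-0.44), both with a limma adjusted p of 0.733. The change of these 2 genes in T-cell dogs minus that in B-cell dogs was -1.39 and -0.62 (limma adjusted p of 0.307 and 0.392). In the same T-cell dogs the 5 macrophage genes (median 1.90) and 4 of 4 stromal and endothelial genes tested (1.47) were each higher on average at 6 weeks. So were the 4 plasma cell (1.52), 5 NK and cytotoxic (0.96), 3 neutrophil (0.86) and 4 B-cell genes (0.81). The 5 macrophage genes each had an unadjusted limma p under 0.05, as had 700 of all 14558 genes in this fit of 3 dogs, and none passed after adjustment. The B-cell average rested on dog 036, whose summed B-cell genes were 128 FPKM at 6 weeks, against 5.79 before treatment. These sums were lower at 6 weeks in dog 028 (13.5 against 18.2 FPKM) and in dog 038 (206 against 305 FPKM). Over all dogs the 5 NK and cytotoxic genes and the 5 macrophage genes were each higher on average at 6 weeks, with medians of 0.65 and 0.75, as were the 3 neutrophil (0.60), 4 plasma cell (0.41) and 5 stromal and endothelial genes (0.31), the 4 B-cell genes and the 7 cell cycle genes each lower, with medians of -0.25 and -0.50, and no member of these lists passed. Their part in the change of the 6 genes was not tested.

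The genes whose level followed CD3E most closely over the 15 initial libraries were PRKCH, protein kinase C eta (Pearson's r of log2(FPKM+1) 0.934), LCP2, the adaptor SLP-76 that ZAP70 phosphorylates (0.930), the chaperone partner DNAJA4 (0.920), NIBAN1 (0.915) and CD84, a receptor of the SLAM family (0.912), among 3806 genes with a symbol. Among the 6 genes, ZAP70 was at rank 3 (0.925), CD5 had 0.834, LCK 0.793, PRKCQ 0.720 and CD3D 0.550, at rank 667. Spearman's rho was 0.864 to 0.896 for those 5 genes and 0.482 for CD3D. The points share the libraries and their cell mixture, so these are descriptions of 15 libraries.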

How the data were processed

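Reads were single-end, and the submitters' processing notes name HISAT2 2.1.0 and StringTie 1.3.3 with the dog build CanFam3.1. The authors deposited FPKM values per gene, scaled by length and depth, and whole-number read counts per gene, not normalized. The main values were the FPKM of all 30 libraries. Counts served as an alternative in the 9 dogs whose counts ranked genes as their FPKM did under the same gene ID (Spearman above 0.5).

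Differences were tested with limma 3.58.1 (trend) in R 4.3.3 on log2(FPKM+1). Genes entered a fit at a mean FPKM above 1, with Benjamini-Hochberg adjustment and a call at 0.05. All 6 genes passed this filter in every comparison. In the unknown dogs before treatment CD5 and ZAP70 averaged only 0.471 and 0.851 FPKM. They therefore passed only through the other group in unknown dogs over time and in unknown against B-cell dogs. Fold changes on this scale understate those of low genes. Pairs were formed from the dog number in the library names, and the dog was a block, as in the study's methods. As a check, the deviations of a dog's libraries from their group means correlated above 0.1 across genes in 13 of 15 dogs (median 0.521). The exceptions were dog 025 (0.08) and dog 036 (-0.056, the lowest). This check thus did not bear out the pairing of dog 025, whose 6 genes had the highest median difference over time. No pair of libraries of a group was identical. edgeR 4.0.16 and DESeq2 1.42.0 were run on counts of genes with a mean normalized count above 50. Fits were tested on simulated data. Tables and figures were made with Python 3.11.15, pandas 2.3.3, NumPy 2.4.6 and matplotlib 3.10.9. Each library is 1 aspirate. Between labels at 1 time, p-values measure the spread of levels between dogs, and with the dog as a block the spread of changes between dogs. Differences between aspirates of the same dog cannot be separated from either.

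Named genes were all members with an ID, per comparison the 4 called pathway genes with the largest difference or, with none called, the 2 with the smallest p, and the 5 genes most like CD3E. Of the pathway genes that this rule names, 1 is not reported here. Symbols came from the study's supplementary gene tables, which named 5086 of 32704 gene IDs. Members and lists were chosen with earlier results of these data known. The alternatives were another pseudocount (0.1), other filters, rescaled FPKM, each dog left out, no block, other fits and the counts.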

Additional observations from a re-analysis of the deposited data

Results flagged for a closer look

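In 9 of 36 sets of values 1 dog stood apart from its group by Dixon's test, at a level of 1 in 20 per set. The sets were each gene in B-cell and unknown dogs at each time, and its change. They share dogs and genes that vary together, so the 9 cannot be set against that level. Dogs 025, 029 and 030 account for all 9. Unknown dog 025 at 6 weeks was far above the other unknown dogs, with log2(FPKM+1) of 7.4 for CD3E, 5.31 for CD5 and 4.83 for PRKCQ, and its change in PRKCQ was 3.79. B-cell dog 029 before treatment was far above the other B-cell dogs, with 5.22 for CD5, 5.26 for PRKCQ and 5.53 for ZAP70. B-cell dog 030 was far below the other B-cell dogs in CD3D at both times, with 3.25 at 6 weeks and 3.04 before treatment.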

How the results depend on the processing

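Of 727 recomputed differences of the 6 genes, 689 kept their direction and their side of the threshold, 10 newly passed and 28 turned direction, all of the latter without a call. The cause was not tested. The number of the 6 genes called between T-cell and B-cell dogs before treatment was 0 to 2 with 1 dog left out in turn, and 5 without dogs 029 and 038, which were picked for their T-cell transcript levels, so that this value supports nothing. DESeq2 called 3 over time in all dogs. Leaving out 1 dog in turn gave CD3D differences of -0.29 to 2.07 (T-cell minus B-cell, initial), -0.10 to 1.22 (6 weeks), -0.44 to 0.073 (unknown minus B-cell) and, over time, -0.038 to 0.42 in unknown and -0.75 to 0.89 in T-cell dogs. Over time in T-cell dogs it gave -1.17 to 0.66 for CD3E, -0.27 to 0.66 for CD5, -0.28 to 0.98 for LCK and -0.67 to 0.68 for ZAP70. For T-cell minus B-cell change it gave -0.85 to 0.79 for CD3D, -1.81 to 0.013 for CD3E, -0.89 to 0.046 for CD5, -0.66 to 0.60 for LCK and -1.32 to 0.042 for ZAP70. CD5 fell under the filter in unknown dogs without dog 025. FPKM rescaled to the same sum in every library, which moved the median of all genes in T-cell dogs to -0.34, gave changes of -0.22 for CD3D, -0.15 for CD5 and -0.27 for ZAP70. A pseudocount of 0.1 gave CD3D a T-cell minus B-cell change of 0.017. In B-cell dogs edgeR gave CD3D -0.048, and the dogs without matching counts gave CD3E -0.10 and ZAP70 -0.013. Among dogs with matching counts, an alternative added after seeing the data, CD3D differed by -0.38 between T-cell and B-cell dogs before treatment. Without the dog as a block the differences over time could not change, as each dog has 1 library per time. The 30 such differences among the 727 were therefore no test of direction. For PRKCQ over all dogs the SE rose to 0.54 and the limma adjusted p to 0.9997. No call could be lost, as there was none with the block. The count of all genes called was 5 before treatment between T-cell and B-cell dogs, and 1 to 1822 with 1 dog left out, 3142 without dogs 029 and 038 and 49 with all labels in the fit. Over time in all dogs it was 0, against 3054 with no filter on low values and 630 in DESeq2, and for T-cell minus B-cell change 0 to 224 with 1 dog left out. With 3 T-cell dogs, small differences could not be detected, and large ones could miss the threshold too. Before treatment GATA3 differed by 3.31 between T-cell and B-cell dogs with a limma adjusted p of 0.159.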

Other observations

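In T-cell dog 038 transcripts of several cell types were higher together at 6 weeks. Its 4 plasma cell genes (IRF4, PRDM1, SDC1 and XBP1) summed to 601 FPKM at 6 weeks, against 56.5 before treatment, its 5 macrophage genes to 329 against 82.3, its 3 neutrophil genes to 143 against 27.6 and its 5 NK and cytotoxic genes to 51.5 against 12 FPKM, while the 6 T-cell genes summed to 105 against 36.1. Its 4 B-cell genes summed to 206 FPKM at 6 weeks, against 305 before treatment, but did not all move alike. POU2AF1, a coactivator, was 91.8 FPKM at 6 weeks, against 42.7 before, and PAX5 was 13.3 against 62.8 FPKM. The part of any cell type in these differences was not tested.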
